A study of Mus musculus with 108 samples.

Results

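The 10 plasmid libraries of the enhancer screen were compared across the cloning step that joins them, 5 in the entry vector pDONR 221 against 5 in the reporter vector pSKB, out of 108 samples in the series. They were chosen by their labels, 1 library for each vector at each of 5 stages of in vitro blood cell differentiation from mouse HM-1 embryonic stem cells. The stages were ES (undifferentiated ES cells), HB (FLK1+ hemangioblast), HE1 (KIT+ TIE2+ CD41- early hemogenic endothelium), HE2 (KIT+ TIE2+ CD41+ later hemogenic endothelium) and HP (KIT+ TIE2- CD41+ hematopoietic progenitors). All 10 libraries hold open chromatin fragments cut out by the Tn5 transposase from unmodified cells, with aliquots of a stage combined before cloning, so each vector and stage is a single library and the spread given below is that over stages. The pSKB vector carries a minimal HSP68 promoter, the Venus-YFP reporter and homology arms for the Hprt locus. The 95 libraries from reporter cells sorted by fluorescence and the 3 control reactions on HM-1 cells were used only where stated.

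Gateway cloning moves a DNA insert between plasmids by site-specific recombination. In the first reaction a fragment flanked by attB sites is recombined into a donor plasmid, and in the second the insert passes from that entry clone into the destination vector. Each reaction is followed by transformation of bacteria, so the number of transformed cells limits how many different inserts are carried forward. Tn5 inserts preferentially into accessible DNA, so fragments gather at promoters and at active distal elements, and the exact pair of cut positions acts as a signature of the original DNA molecule.

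A fragment was defined by its chromosome, start and end, and each list gave the number of reads for every distinct fragment. The pDONR libraries held 17249152 to 33263313 reads on 5660096 to 8832923 distinct fragments as deposited, and the pSKB libraries 15238561 to 26348189 reads on 1302941 to 1952358 distinct fragments. Lengths ran from 68 to 600 bp in both vectors. The stage labels were checked against marker genes, counted as distinct fragments over the gene body and 10 kb on each side and scaled to CPM (counts per 1e+06 distinct fragments of the whole list). Summed over the 10 pluripotency genes, fragments were highest at ES in both vectors (770 CPM in pDONR and 770 in pSKB), and over the 10 mesoderm and hemangioblast genes at HB (831 and 814). The 11 endothelial genes peaked at HE1 (1498 and 1429) and the 12 blood genes at HP (1333 and 1297). Of the 43 marker genes, 36 had their highest stage in common between the vectors, which need not be the stage at which the sum of their list peaked. In both vectors Kdr was highest at HE1, Tal1 at HE2 and Lmo2 at HP among the mesoderm and hemangioblast genes. Among the blood genes Myb was highest at ES, Gfi1 at HB, Csf1r at HE1, and Kit and Gata2 at HE2 in both. The sums therefore do not hold for every gene.

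The most read fragments show what passed through the cloning step. The sequences below are the most read pSKB fragments at ES and HB and the most read pDONR fragment at HP, the 3 that are under 300 bp among the most read fragments of the 10 lists. They are printed from the mm10 reference, plus strand, with CG dinucleotides in capitals, because each was recovered with the same 2 ends from both vectors of its stage.
pSKB ES, Prdm8: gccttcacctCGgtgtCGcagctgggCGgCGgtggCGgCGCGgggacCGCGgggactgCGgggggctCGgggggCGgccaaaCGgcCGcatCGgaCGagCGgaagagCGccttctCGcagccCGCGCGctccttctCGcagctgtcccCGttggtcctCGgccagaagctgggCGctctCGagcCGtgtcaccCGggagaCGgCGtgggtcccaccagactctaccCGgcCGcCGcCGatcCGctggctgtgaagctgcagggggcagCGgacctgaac
pSKB HB, near Fstl4: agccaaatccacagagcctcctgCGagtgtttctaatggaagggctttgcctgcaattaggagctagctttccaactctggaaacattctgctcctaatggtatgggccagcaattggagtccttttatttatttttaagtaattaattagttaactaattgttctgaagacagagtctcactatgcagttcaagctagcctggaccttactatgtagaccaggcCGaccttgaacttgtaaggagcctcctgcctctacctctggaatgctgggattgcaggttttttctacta
pDONR HP, 4930471E19Rik: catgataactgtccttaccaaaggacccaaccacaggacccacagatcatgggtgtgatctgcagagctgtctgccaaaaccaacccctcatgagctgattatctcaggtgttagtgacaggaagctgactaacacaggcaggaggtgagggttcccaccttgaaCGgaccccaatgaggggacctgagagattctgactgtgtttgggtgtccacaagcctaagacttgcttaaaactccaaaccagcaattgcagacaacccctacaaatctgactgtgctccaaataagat

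The ES fragment (chr5:98185962-98186240, 279 bp) lies in an exon of Prdm8, which encodes a PR domain histone methyltransferase family member, and overlaps the antisense gene A730035I17Rik, 116 bp from that gene's start. It held 37 CG dinucleotides at 74.2% GC. It had 2286 reads in pSKB ES and 147 in pDONR ES, and at most 1 read in any list of another stage. The HB fragment (chr11:52641098-52641392, 295 bp) lies between genes, 123390 bp from the nearest start, that of Fstl4, a follistatin-like gene. It held 2 CG dinucleotides at 43.7% GC, with 3046 reads in pSKB HB, 387 in pDONR HB and 0 in the other 8 lists. The HP fragment (chr10:120680156-120680449, 294 bp) is intronic to the long non-coding RNA gene 4930471E19Rik and held 1 CG dinucleotide. It had 1495 reads in pDONR HP, 1244 in pSKB HP and 0 elsewhere.

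The fragments that led the pDONR lists were also well read in pSKB, whereas those that led the pSKB lists ranged from well read to barely seen in pDONR. The leading pDONR fragment at ES, in an exon of the ubiquitin-conjugating enzyme variant gene Ube2v2 (chr16:15594090-15594484), had 1052 reads in pDONR and 650 in pSKB. At HB it lay 211 bp from the start of Trnau1ap, a selenocysteine tRNA-associated factor (chr4:132329587-132329913), with 1487 and 1677 reads. At HE1 it was intronic to Cdk5rap2, a centrosomal gene (chr4:70263341-70263672), with 1932 and 2216 reads. At HE2 it lay between genes (chr2:161341495-161341801), with 707 and 403 reads. In the other direction, the leading pSKB fragment at HE1, in an exon of the kinase gene Camk2g and 285 bp from the start of Ndst2 (chr14:20734686-20735010), had 2397 reads in pSKB and 7 in pDONR. That at HE2, intronic to Pdss2, a coenzyme Q synthesis gene (chr10:43280760-43281129), had 2309 and 184 reads. That at HP, intronic to the antisense gene Gm26973 and 7045 bp from the start of the homeobox gene Nkx2-1 (chr12:56543787-56544120), had 3102 and 13 reads. None of the 10 leading fragments took more than 0.0150% of the reads of its list.

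The reporter vector libraries held fewer different fragments than the entry vector libraries at every stage. Each list was thinned to the lowest read total, 15231500 reads on chromosomes 1 to 19, X, Y and M, so that depth was equal. At this depth the pDONR libraries held 4840860 (ES), 4677220 (HB), 6238970 (HE1), 5984210 (HE2) and 5799860 (HP) distinct fragments, to 6 significant digits. The pSKB libraries held 1693040 (ES), 1737920 (HB), 1489910 (HE1), 1402580 (HE2) and 1038330 (HP). The ranges did not overlap: the richest pSKB library, HB, lay below the poorest pDONR library, also HB. The means were 5508220 ± 703838 in pDONR and 1472360 ± 279634 in pSKB (SD, n = 5 each), a 3.74-fold difference. The exact two-sided permutation test over 252 splits gave p = 0.00794, the smallest it can give, and an adjusted p of 0.0198 over the 10 library measures. The fold difference was smallest at HB (2.69) and ES (2.86), larger at HE1 (4.19) and HE2 (4.27), and largest at HP (5.59). With the stages paired (replicate block), the exact sign-flip test gave p = 0.0625, the smallest that 5 pairs allow, here and for the read measures that follow. Without the libraries of any 1 stage the adjusted p was 0.0571 to 0.0714, at the smallest p that 4 stages allow (0.0286).

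**Figure D1:**
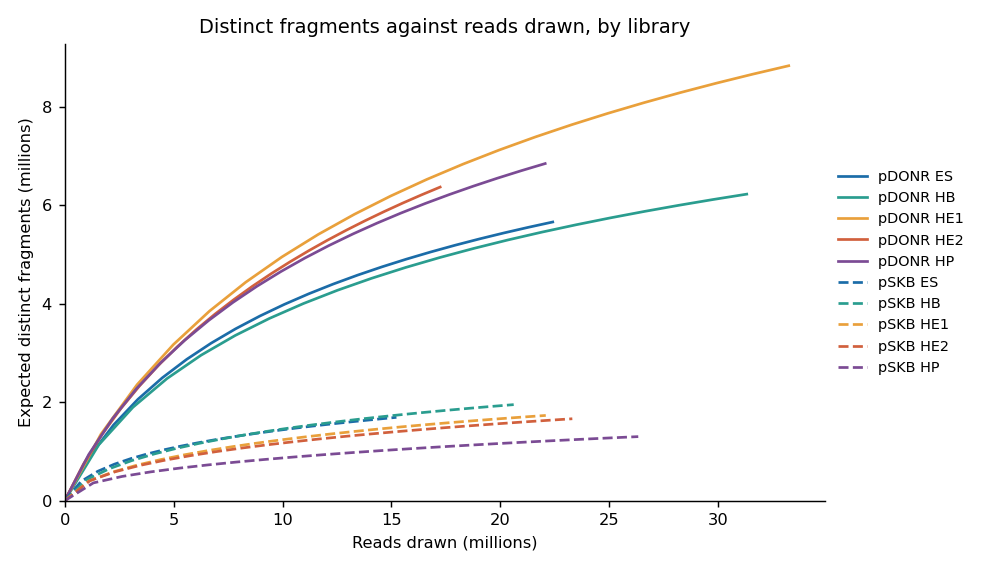
Expected number of distinct fragments (y axis, axis numbers in units of 1e+06) when the given number of reads (x axis, same units) is drawn from a list, for the 5 pDONR (solid) and 5 pSKB (dashed) libraries, 1 colour per stage. All pSKB curves end at 1.30 to 1.95 on this scale, and the pDONR curves at 5.66 to 8.83. The curves of both vectors are still rising at the end of their reads.

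Reads were also spread less evenly over the fragments of pSKB. The Gini coefficient, which is 0 when all fragments have equal reads and nears 1 when few hold them all, was 0.438 to 0.517 over the pDONR libraries. It was 0.711 to 0.781 over the pSKB libraries, again without overlap (0.472 ± 0.0339 against 0.757 ± 0.0280, SD, n = 5, exact permutation p = 0.00794, adjusted p = 0.0198). The most read 1% of fragments took 9.30% to 12.7% of pDONR reads and 18.9% to 24.4% of pSKB reads (11.1% ± 1.45 against 21.9% ± 2.44, SD, n = 5, exact permutation p = 0.00794, adjusted p = 0.0198). Fragments with 1 read made up 47.7% ± 3.47 of pDONR and 40.5% ± 2.11 of pSKB at equal depth (SD, n = 5, exact permutation p = 0.00794, adjusted p = 0.0198). This last difference shrank to -1.70 points in the lists as deposited (exact permutation p = 0.635, n = 5), and so depended on depth. The Gini coefficient and the top 1% share also rose with depth in every list that was thinned. In pDONR HE1 they went from 0.438 and 9.90% at equal depth to 0.522 and 11.7% as deposited. At equal read totals, lists with fewer distinct fragments hold more reads per fragment. How much of these differences goes with the lower number of distinct fragments was not tested.

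**Figure D2:**
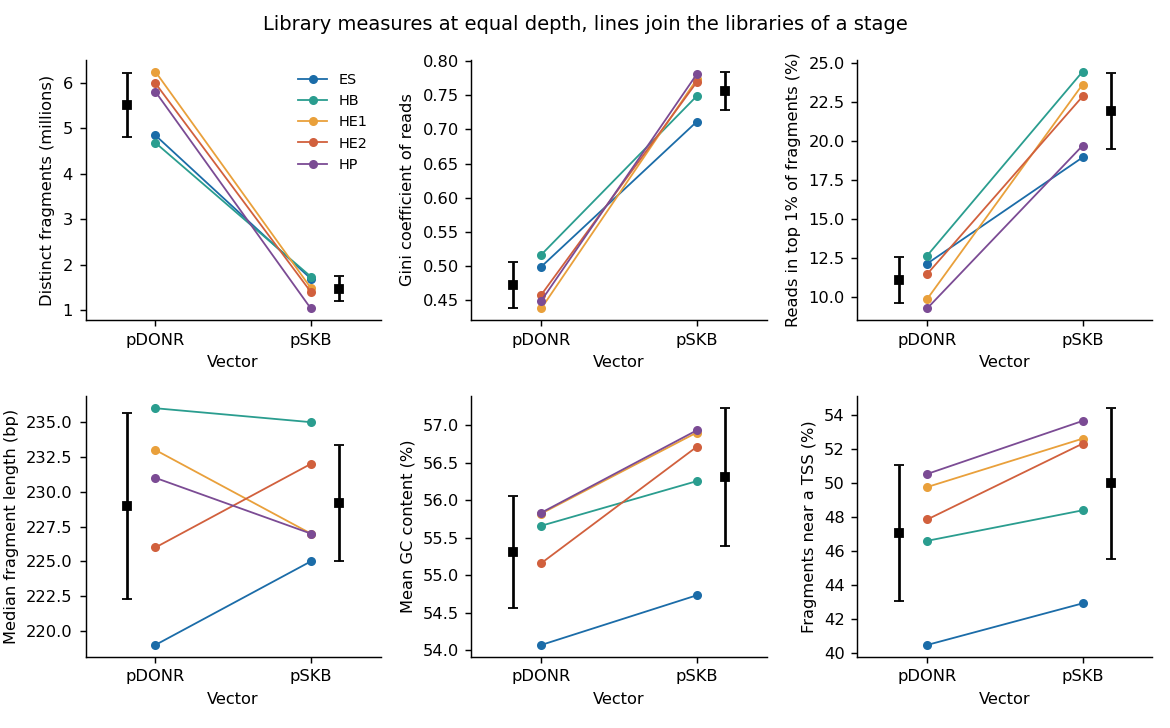
The panels show 6 measures of the 10 libraries at equal depth (distinct fragments in units of 1e+06), pDONR at left and pSKB at right in each panel, with lines joining the 2 libraries of a stage. Black squares and bars are the mean and SD over 5 stages, and y axes do not start at 0. Distinct fragments fall and the Gini coefficient and top share rise in 5 of 5 stages without overlap, the length lines cross, and GC content and TSS-near share rise a little in 5 of 5 stages.

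With each fragment counted once at equal depth, fragment length did not shift with the vector beyond the spread over stages. This depended on read number: on average pSKB was shorter among fragments with at least 2 reads and longer when weighted by reads, as given below. The median length was 219 bp at ES, 236 bp at HB, 233 bp at HE1, 226 bp at HE2 and 231 bp at HP in pDONR. In pSKB it was 225, 235, 227, 232 and 227 bp in the same order. The means were 229 ± 6.67 and 229.2 ± 4.15 bp (SD, n = 5, exact permutation p = 1), higher in pSKB at 2 stages and lower at 3. Fragments under 150 bp, shorter than the DNA wrapped on a nucleosome with its linker, made up 14.5% ± 5.33 and 15.0% ± 2.76 (SD, n = 5, exact permutation p = 0.849), higher in pSKB at 4 stages. The pDONR ES library stood apart with 23.8% of such fragments against 10.4% to 12.8% in the other pDONR libraries, and pSKB ES held 18.8%.

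Base composition and position moved slightly and in the same direction at all stages. Mean GC content was 54.1% (ES), 55.7% (HB), 55.8% (HE1), 55.2% (HE2) and 55.8% (HP) in pDONR and 54.7%, 56.3%, 56.9%, 56.7% and 56.9% in pSKB. Each pSKB library was higher than the pDONR library of its stage, by 0.995 ± 0.386 points on average (SD, n = 5), but the vectors overlapped (exact permutation p = 0.103, adjusted p = 0.206). The share of fragments within 1.5 kb of a transcription start site (TSS) was 40.5% (ES), 46.6% (HB), 49.8% (HE1), 47.9% (HE2) and 50.5% (HP) in pDONR. In pSKB it was 42.9%, 48.4%, 52.6%, 52.3% and 53.7%. The gain of 2.93 ± 0.988 points (SD, n = 5) was seen in 5 of 5 stages and was smaller than the spread over stages within a vector (exact permutation p = 0.310, adjusted p = 0.442). Chromosome X fragments were lower in pSKB in 5 of 5 stages (1.67% ± 0.0512 against 1.63% ± 0.0629, SD, n = 5, exact permutation p = 0.262). With the stages paired, the exact sign-flip test gave the smallest p that 5 pairs allow for GC content, TSS-near share and chromosome X share. The unpaired permutation test sets these shifts against the spread over stages, not against the spread of the paired differences. Mitochondrial fragments made up 0.537% ± 0.227 and 0.582% ± 0.265 (SD, n = 5, exact permutation p = 0.746).

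The pSKB libraries could be traced to the pDONR library of their own stage fragment by fragment. Identical fragments in the pDONR list of the same stage accounted for 81.2% (ES), 82.7% (HB), 78.6% (HE1), 69.3% (HE2) and 73.4% (HP) of pSKB fragments. The pDONR lists of the other stages held 1.71% to 4.52% of a pSKB library, 2.87% on average. No other-stage value came near the own-stage values (77.0% ± 5.59, SD, n = 5), and the own-stage pairing was the best of all 120 ways to pair the lists (exact one-sided permutation p = 0.00833, the smallest possible). By reads, the own-stage share was 83.1% to 92.5%. Counting error was small, with Wilson intervals at the 95% level of at most 0.0759 points on each side of these shares. Intervals cover counting error only, since reads of PCR products carry no molecular identifier.

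**Figure D3:**
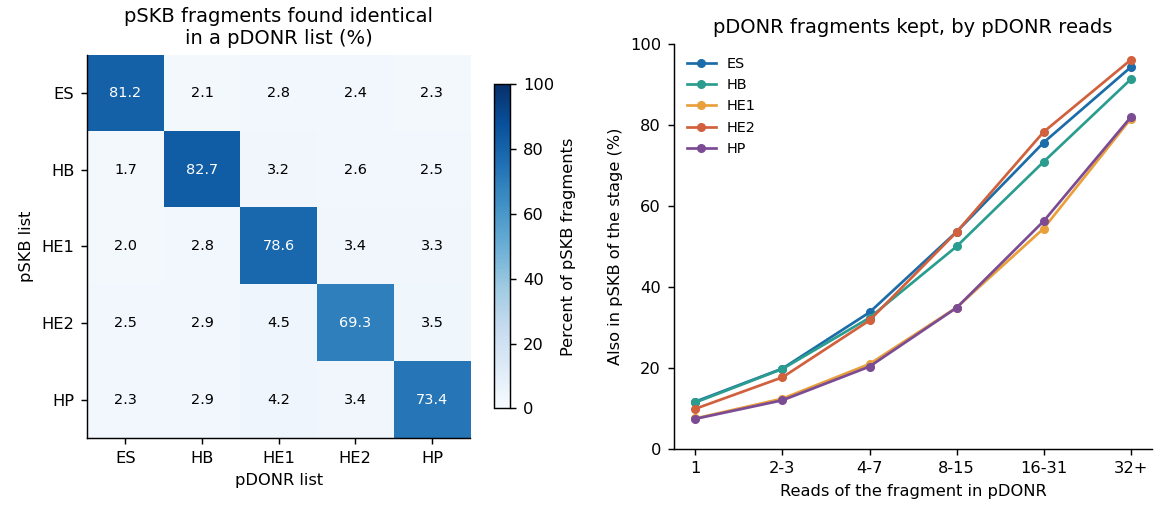
Left, percent of the fragments of each pSKB list (rows) found with identical ends in each pDONR list (columns). The diagonal holds 69.3% to 82.7% and all other cells 1.71% to 4.52%. Right, percent of pDONR fragments also in the pSKB list of the stage (y axis) by their number of pDONR reads (x axis), 1 line per stage, rising from 7.40% to 11.6% at 1 read to 81.5% to 96.1% at 32 and more reads.

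A remainder of pSKB fragments was not seen in the pDONR list of the stage even when well read. Of pSKB fragments with 32 and more reads, 93.4% (ES), 94.1% (HB), 87.2% (HE1), 83.9% (HE2) and 83.2% (HP) were in the own pDONR list. Of those that were not, 6.51% to 9.92% occurred in a pDONR list of another stage, and 2.07% to 5.83% had an own-stage pDONR fragment with start and end within 2 bp. As the curves of neither vector had levelled off, absence from a pDONR or pSKB list does not show absence from the plasmid pool.

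In the opposite direction, most pDONR fragments were not seen in the pSKB list of the stage. The share seen again, called kept here, was 24.3% at ES, 25.9% at HB, 15.4% at HE1, 18.1% at HE2 and 14.0% at HP. The kept fragments carried 46.9% (ES), 52.4% (HB), 31.5% (HE1), 35.4% (HE2) and 27.1% (HP) of pDONR reads. Retention rose steeply with the number of pDONR reads of a fragment. Fragments with 1 pDONR read were kept at 9.58% ± 2.06, those with 4 to 7 reads at 27.8% ± 6.60 and those with 32 and more reads at 89.0% ± 6.88 (SD, n = 5). Fragments with 8 and more reads exceeded those with 1 read by 42.9 ± 8.63 points (SD, n = 5), in 5 of 5 stages (exact sign-flip p = 0.0625, the smallest 5 pairs allow). Among fragments found in both vectors the read numbers themselves were only loosely related. Spearman's rho across fragments was 0.248 at ES, 0.309 at HB, 0.170 at HE1, 0.187 at HE2 and 0.111 at HP, over 955379 to 1613126 shared fragments that are not independent replicates.

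Short fragments were kept less often than long fragments over all read numbers, but the sign of the contrast turned with the number of pDONR reads. Retention was 9.51% ± 2.03 at 68 to 99 bp, 17.1% ± 4.93 at 150 to 199 bp and 24.6% ± 7.13 at 300 to 349 bp, then 19.9% ± 6.25 at 550 to 600 bp (SD, n = 5). Fragments of 150 bp and over exceeded shorter fragments by 9.38 ± 4.01 points (SD, n = 5) in 5 of 5 stages (exact sign-flip p = 0.0625). Within read classes, examined after the rise with read number was seen, it was 2.46 ± 1.82 points at 1 read, above 0 in 5 of 5 stages, and 1.85 ± 3.05 points at 2 to 3 reads, above 0 in 3 (SD, n = 5). At 4 to 7 reads it was -2.99 ± 5.31 points (exact sign-flip p = 0.25, n = 5), with 5.55 points at ES against -4.82 at HB, -6.77 at HE1, -1.46 at HE2 and -7.43 at HP. At 8 to 15 reads it was -13.7 ± 8.78 points, with ES again above 0 at 0.982. At 16 to 31 reads it was -20.5 ± 11.1 and at 32 and more -9.74 ± 7.53 points, below 0 in 5 of 5 stages (SD, n = 5, exact sign-flip p = 0.0625 for both). In the class with 4 to 7 reads retention was 30.5% ± 4.42 at 68 to 99 bp, 23.6% ± 6.75 at 350 to 399 bp and 31.9% ± 12.5 at 550 to 600 bp (SD, n = 5). HE2 had the highest value of the longest class, at 50.5%.

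GC-rich and TSS-near fragments were kept more often, with and without this restriction. Retention rose from 16.0% ± 5.87 at 30% to 40% GC to 22.7% ± 5.57 at 70% to 80% GC (SD, n = 5). Fragments of at least 50% GC exceeded the rest by 2.90 ± 1.18 points, and by 4.41 points among those with 4 to 7 pDONR reads, in 5 of 5 stages overall (exact sign-flip p = 0.0625 for both, n = 5). Fragments near a TSS were kept at 21.2% ± 5.42 and distal fragments at 18.1% ± 5.41, a gap of 3.06 ± 0.614 points (SD, n = 5) in 5 of 5 stages (exact sign-flip p = 0.0625). With 4 to 7 pDONR reads the gap was 2.85 points. Where read number (4 to 7), length (200 to 249 bp) and GC content were all held in a narrow range, TSS-near and distal fragments were kept at close values. They were 27.3% and 26.9% at 40% to 50% GC, 30.4% and 29.9% at 50% to 60%, and 32.6% and 32.5% at 60% to 70% (means over 5 stages, SDs 7.45 to 7.76).

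**Figure D4:**
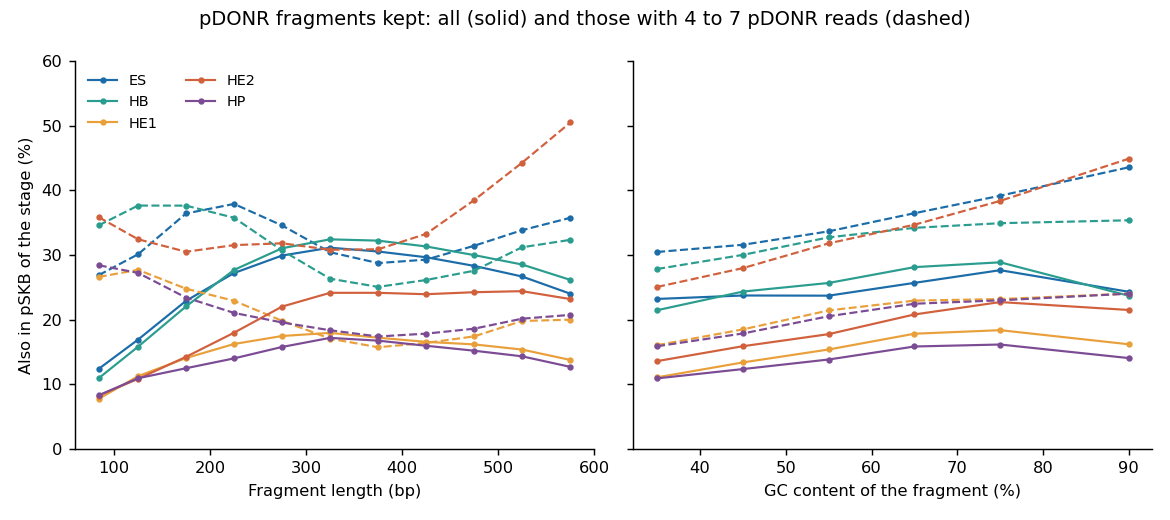
Percent of pDONR fragments also in the pSKB list of the stage (y axis) by length (left, bp) and by GC content (right, percent, fragments of at least 30%), 1 colour per stage. Solid lines hold all fragments and dashed lines those with 4 to 7 pDONR reads. The solid length curves rise to about 300 to 349 bp (mean 24.6%), the dashed length curves do not rise from the shortest class to there, except at ES, and the GC curves rise in both up to 70% to 80%, the solid ones falling above that.

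Relative to the bulk of promoter windows, few single windows were called different between the vectors. Distinct fragments were counted in windows of 1.5 kb on each side of the TSS of protein-coding genes and tested with edgeR (quasi-likelihood, stage as a block, TMM normalization). Each change is a log2 ratio, pSKB over pDONR, relative to the bulk of windows. The overall loss of fragments, and any gain or loss shared by most windows, are not part of it. Of 13998 windows that passed the filter on low counts, 2 were called at an adjusted p of 0.05, both higher in pSKB (0.0143% of windows), and 0 were called lower (0%). At an unadjusted p under 0.05 there were 684 windows (4.89%). Without stage in the model, with DESeq2 and with reads in place of distinct fragments 0 windows were called, with 30, 109 and 1217 at an unadjusted p under 0.05. The log2 changes had a median of -0.00181, which the scaling sets near 0, and 99.5% lay within 0.5 of 0. By CPM of the whole list, the median window tested held 22.0 in pDONR and 23.8 in pSKB. Since most pSKB fragments are also in the pDONR list of the stage, the counts of the 2 vectors in a window are not independent of each other.

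Rnf44, which encodes a RING finger ubiquitin ligase (start at chr13:54693907), and Sfi1, which encodes a centrin-binding protein of the centrosome (start at chr11:3193463), were the windows called. The Rnf44 window held 57.8, 88.2, 117, 105 and 107 CPM in pDONR at ES, HB, HE1, HE2 and HP, and 80.3, 104, 154, 141 and 133 in pSKB. Each pSKB library was above the pDONR library of its stage, while the ranges overlapped. The edgeR log2 change was 0.25 ± 0.049 (SE) with an adjusted p of 0.0129. The Sfi1 window was among the most densely covered, with 567, 427, 357, 380 and 435 CPM in pDONR and 735, 522, 455, 433 and 538 in pSKB. Its edgeR log2 change was 0.19 ± 0.029 (SE), adjusted p = 1.4e-07, again with each pSKB library the higher of its pair. The Rnf44 call was lost without the ES, HE1 or HE2 libraries, and the Sfi1 call was kept without any 1 stage. For comparison, the median window tested held 22.0 CPM in pDONR. CPM refer to the whole list and the edgeR log2 change to the bulk of windows, so ratios of CPM differ from it. From CPM plus 0.5, the Rnf44 log2 ratio ran from 0.236 (HB) to 0.471 (ES). The promoter of Rnf44 in RefSeq (GRCm38.p6, chr13:54693911-54694210, minus strand, 250 bases before to 50 after the RefSeq start at 54693960, which lies upstream of the start used for the window) is shown because its window was called. It is 74.7% GC with 35 CG dinucleotides, in capitals.
Rnf44 promoter: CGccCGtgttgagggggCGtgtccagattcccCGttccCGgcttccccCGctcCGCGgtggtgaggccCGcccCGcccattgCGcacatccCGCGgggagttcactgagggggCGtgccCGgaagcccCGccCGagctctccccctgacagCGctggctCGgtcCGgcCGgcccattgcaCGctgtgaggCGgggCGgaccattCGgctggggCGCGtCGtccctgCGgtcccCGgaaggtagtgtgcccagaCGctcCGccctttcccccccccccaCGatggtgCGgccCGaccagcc

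Of the 43 stage marker genes, 32 had a window that passed the filter, and 0 were called in either direction, against 0.0143% of all windows tested. Among pluripotency genes, 5 of 10 windows were tested, with a median log2 change of -0.10. Sox2, a core pluripotency factor, stood at 0.08 and Prdm14, a germ cell and pluripotency regulator, at -0.46 ± 0.17 (SE, edgeR adjusted p = 0.929). Pou5f1, which encodes OCT4, was not tested because its window was nearly empty after ES and HB. It held 244, 124, 22, 7 and 15 fragments from ES to HP in pDONR and 67, 40, 4, 0 and 1 in pSKB, so both vectors were high at ES and HB only. The REX1 gene Zfp42 showed the same order with 102, 21, 6, 2 and 4 fragments in pDONR and 23, 8, 1, 0 and 1 in pSKB.

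The mesoderm and hemangioblast genes had 9 of 10 windows tested and a median of -0.01, from -0.13 for Hand1 to 0.08 for T, the brachyury gene. The window of Mixl1, a primitive streak homeobox gene, held 85, 301, 81, 64 and 94 fragments in pDONR and 33, 100, 18, 19 and 15 in pSKB, highest at HB in each. Over gene bodies, Mesp1, a regulator of early mesoderm, had 132 CPM in pDONR HB and 133 in pSKB HB, with 35.3 to 41.4 and 30.0 to 47.3 at the other stages.

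The endothelial genes had 9 of 11 windows tested and a median of -0.10. The window of Cdh5, which encodes VE-cadherin, held 18, 17, 177, 101 and 71 fragments in pDONR and 5, 8, 35, 28 and 20 in pSKB, highest at HE1 in each, with a log2 change of 0.05. Sox17, an endothelial transcription factor, and Tek, which encodes TIE2, stood at -0.37 ± 0.12 and -0.44 ± 0.17 (SE), with edgeR adjusted p = 0.891 and 0.942. Sox17 held 46, 82, 233, 94 and 93 fragments in pDONR and 13, 28, 45, 15 and 6 in pSKB.

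The blood genes had 9 of 12 windows tested and a median of -0.06. Itga2b, which encodes CD41, went from 8 fragments at ES to 503 at HP in pDONR and from 2 to 87 in pSKB, with a log2 change of -0.21 ± 0.079 (SE, edgeR adjusted p = 0.942). Spi1, which encodes the myeloid factor PU.1, went from 12 to 208 and from 4 to 34. Over the gene body of Runx1, the regulator of hemogenic commitment, the levels in CPM were 133, 226, 194, 276 and 384 in pDONR and 142, 222, 181, 270 and 359 in pSKB, in the same order of stages. Of the ribosomal protein genes 77 of 81 windows were tested, with a median of -0.06 and 24 above 0, and 0 were called. Of the replication-dependent histone genes 57 of 67 were tested, with a median of -0.13 and 7 above 0, and 0 were called. Over all windows tested, 6925 of 13998 were above 0. These signs are relative to the bulk of windows and can differ from those by CPM of the whole list. Median CPM went from 22.3 in pDONR to 24.2 in pSKB for ribosomal protein genes and from 16.6 to 18.9 for blood genes. It went from 12.3 to 12.7 for pluripotency and from 23.3 to 23.9 for mesoderm and hemangioblast genes. For endothelial genes it went from 15.2 to 12.3 and for histone genes from 23.5 to 22.5.

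**Figure D5:**
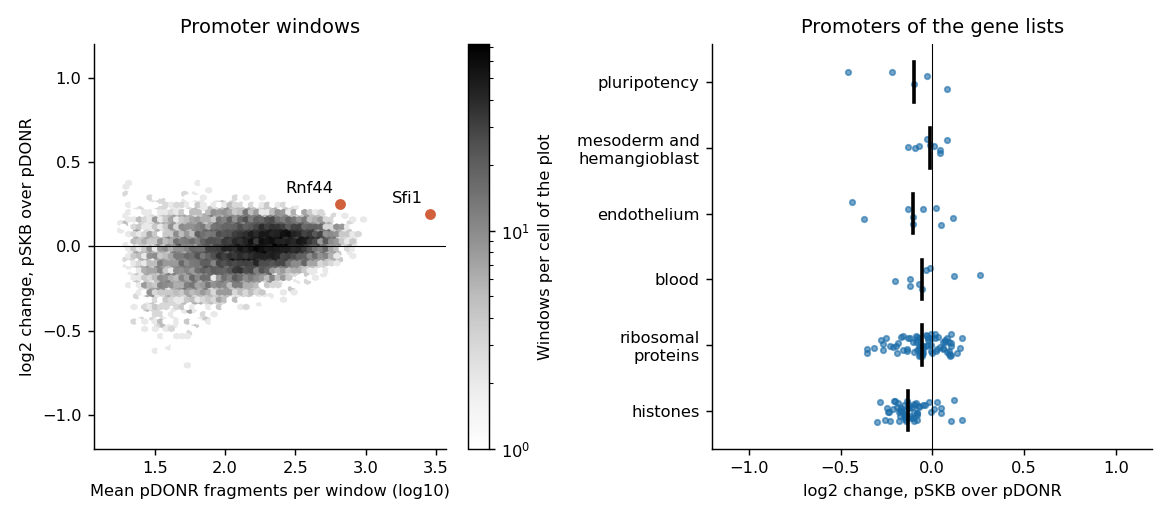
Left, log2 change of the 13998 promoter windows (y axis) against their mean number of pDONR fragments (log10, x axis), grey by the number of windows (cells of the plot with 1 window are white), with the 2 called windows in orange. Right, log2 change of the tested windows of each gene list, 1 point per gene with the median as a black bar and the median of all windows as a thin line. Points crowd around 0 in both panels, and the histone list has its median at -0.13.

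Differences between stages were carried along with the fragments. For each window the level at a stage was set against the mean of the other 4 stages on the log2 scale (CPM plus 0.5). Of windows at least 2-fold apart in pDONR, 1294 of 1296 differed in the same direction in pSKB at ES, 543 of 544 at HB, 264 of 268 at HE1, 178 of 185 at HE2 and 221 of 222 at HP. The median size on the log2 scale was 1.15 in pDONR and 1.19 in pSKB at ES, 1.18 in both at HB, 1.16 and 1.17 at HE1, 1.22 and 1.08 at HE2, and 1.25 in both at HP. Pearson's r between the window levels of the vectors was 0.962 to 0.977 for own stages and 0.789 to 0.961 for other stages, across 13998 windows that share fragments between vectors and are not independent replicates.

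Bins of 10 kb over the whole genome showed where small shifts lay. Of 68611 bins tested in the same way, 4504 had an unadjusted p under 0.05 (6.56%) and 231 were called (0.337%), 227 higher (0.331%) and 4 lower (0.00583%) in pSKB. The higher bins were those with many fragments, with a median of 514 pDONR fragments a library against 39.6 over all bins tested. Of them 204 held a protein-coding TSS, as did 14375 of all bins. The share called rose from 0.00485% of bins under 50 pDONR fragments to 43.3% of those with 800 and more. Calls with and without a TSS were not compared at equal coverage. The median log2 change itself rose with coverage, from -0.06 in bins under 50 pDONR fragments to 0.14 in those with 800 and more. It also rose with GC content, from -0.06 under 40% to 0.08 at 55% to 60%. Without stage in the model 0 bins were called (191 at an unadjusted p under 0.05), and with DESeq2 3. Without the ES libraries 145 bins were called, without HB 158, without HE1 36, without HE2 22 and without HP 67.

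The 3 called bins with the largest rise lay at 3 different genes. They were the bin of Cox7a2l, a respiratory supercomplex factor (chr17:83510001-83520000, log2 change 0.53 ± 0.085, SE, edgeR adjusted p = 0.000679), that of Sri, which encodes the calcium-binding protein sorcin (chr5:8050001-8060000, 0.48 ± 0.093, adjusted p = 0.0133), and that of Tulp4 (chr17:6100001-6110000, 0.40 ± 0.083, adjusted p = 0.0204). Without 1 stage the edgeR adjusted p reached 0.105 for Cox7a2l (without HE1), 0.301 for Sri and 0.386 for Tulp4, and Sri and Tulp4 kept their call only without ES. The Cox7a2l bin held 13.6, 20.1, 29.0, 29.4 and 32.7 CPM in pDONR and 19.5, 24.6, 47.3, 41.5 and 46.1 in pSKB, higher in each pair. The bin with the smallest p, named after its value was seen, was at chr17:39840001-39850000 and holds Gm42418 and AY036118, which lie over a ribosomal RNA repeat. It held 10840 to 27302 pDONR and 3812 to 7055 pSKB fragments, with a log2 change of 0.32 ± 0.022 (SE, edgeR adjusted p = 6e-20).

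The 4 bins called lower hold no protein-coding TSS, as did 54236 of the 68611 bins tested. The bin within Slc25a36, a mitochondrial nucleotide carrier gene (chr9:97100001-97110000), held 32, 12, 27, 21 and 19 fragments in pDONR and 6, 1, 0, 2 and 0 in pSKB. Its log2 change was -1.60 ± 0.39 (SE, edgeR adjusted p = 0.0437). The bin at Eefsec, the selenocysteine elongation factor gene (chr6:88320001-88330000), held 33, 39, 47, 38 and 25 against 7, 7, 2, 4 and 1, a change of -1.13 ± 0.26 (adjusted p = 0.0483). The bin at Nufip2 (chr11:77730001-77740000) held 79, 36, 45, 40 and 51 against 14, 6, 6, 3 and 2, a change of -1.03 ± 0.21 (adjusted p = 0.0196). The Nufip2 change had the opposite sign, 0.29, when reads were summed in place of distinct fragments. The fourth bin, named after its value was seen, at Pigl (chr11:62460001-62470000), fell by 0.44 on the log2 scale (SE 0.085, adjusted p = 0.0123). Leaving out any 1 stage ended the calls of Slc25a36 (edgeR adjusted p 0.101 to 0.451) and Eefsec (0.0537 to 0.457), and that of Nufip2 was kept only without HB. At equal depth, with DESeq2 and without HE1, HE2 or HP, 0 bins were called lower. The filter on low counts does not ask for fragments in both vectors. Bins with few pSKB fragments could thus pass it mainly through pDONR, where they were higher, which limits what these calls show. With no filter, 0 bins were called in either direction.

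Few loci with 10 and more pDONR fragments had none left in the pSKB lists. At the lowest cut, at least 1 pDONR fragment at a stage, 8.26% (HB) to 12.5% (HP) of promoter windows were empty in pSKB. Of 10 kb bins at this cut, 16.4% (HB) to 29.8% (HP) were empty. Of promoter windows with 10 and more pDONR fragments at a stage, 23 of 15585 had 0 pSKB fragments at ES, 26 of 15497 at HB, 100 of 15657 at HE1, 49 of 15225 at HE2 and 99 of 15385 at HP. With 50 and more pDONR fragments, 0 of 11822 to 12616 windows were empty at any stage. Over 10 kb bins with 10 and more fragments the empty share was 0.944% (ES), 0.905% (HB), 4.85% (HE1), 2.39% (HE2) and 4.90% (HP). With the 5 stages summed, 56 of 18603 windows and 1533 of 231029 bins with 10 and more pDONR fragments were empty in pSKB.

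The empty windows with the most pDONR fragments were those of Gnrh1, the gonadotropin-releasing hormone gene (26 fragments over 5 stages), Pcdhb21, a clustered protocadherin (24), Tes3-ps (24), Fmo6, a flavin-containing monooxygenase (21), and Cyp3a11, a liver cytochrome P450 (18). At Gnrh1 the pDONR libraries held 4, 4, 9, 6 and 3 fragments. These windows were picked for their count of 0, so no fold is given for them. No window or bin without a pDONR fragment held 10 or more pSKB fragments in any stage.

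Recovery from the reporter cells was read against both vectors. The 95 sorted libraries together held 1176712 distinct fragments. The methods describe a filter to fragments identical to those of the plasmid libraries, but the lists also held fragments found in neither vector here. Of all 1176712 sorted fragments, 73.6% were in a pDONR list and 40.7% in a pSKB list, with 39.8% in pDONR only, 6.90% in pSKB only and 19.5% in neither. The pDONR lists together are the larger, at 32777360 distinct fragments against 8157983. Among pDONR fragments, those also in pSKB of the stage were found in sorted cells at 6.22% ± 3.65 and those in pDONR only at 2.15% ± 1.44 (SD, n = 5). The former had more pDONR reads, and recovery rose with these, from 2.24% ± 1.02 at 1 read to 14.1% ± 10.2 at 32 and more. With 4 to 7 pDONR reads the shares were 5.86% ± 3.54 and 2.60% ± 2.20 (SD, n = 5). Within pSKB, fragments in both vectors were found at the same 6.22% ± 3.65, being the same fragments, and fragments in pSKB only at 6.45% ± 2.23 (SD, n = 5). The share rose with pSKB reads, from 4.83% ± 2.94 at 2 to 3 reads to 12.9% ± 6.26 at 32 and more (SD, n = 5). These shares were not tested.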

How the data were processed

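The authors tagmented open chromatin of each stage with Tn5, cloned the fragments, sequenced the inserts in 1 or more runs, trimmed reads with Trim Galore, aligned them to mm10 with Bowtie2, filtered by mapping quality with SAMtools, converted pairs to intervals with bedtools and collapsed identical intervals in the shell. The deposited plasmid lists give each distinct fragment with its whole-number count of reads, and the deposited sorted and control lists give coordinates without counts. Sorted starts were shifted by 1 base to match. Reads per library ran from 15238561 to 33263313. Chromosomes 1 to 19, X, Y and M were used.

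Lists were thinned to 15231500 reads for 10 library measures, compared by exact two-sided permutation with Benjamini-Hochberg adjustment. Distinct fragments were counted in windows of 1.5 kb on each side of protein-coding starts (GENCODE vM21) and in 10 kb bins. They were tested with edgeR 4.0.16 in R 4.3.3 (filterByExpr, TMM, quasi-likelihood, stage as block) at an adjusted p of 0.05. This test gives no SE, so the SE printed is the absolute log2 change divided by the square root of its F statistic. In simulated counts, 59 of 100 windows changed by 0.5 on the log2 scale were called, and 91 of 100 changed by 1. For bins 20 and 46 of 100 were called, so a locus not called may still differ. The simulated counts of the vectors were drawn independently, whereas the real ones share fragments. DESeq2 1.42.0, reads in place of fragments, other filters and window sizes, and leaving out each stage were alternatives. Named were members of the gene lists, up to 5 called windows and 3 called bins with the largest change in each direction (same sign in 5 of 5 stages, 10 or more fragments on average in the higher vector), up to 5 windows without a pSKB fragment, and the most read fragment of each list. The replicate number of a library marks its stage, so pairing pDONR with pSKB comes from the labels. Members and lists were chosen with earlier results of these data known. With 1 library per vector and stage, the permutation p-values of library measures refer to the spread over stages within a vector. The sign-flip p-values, with stages paired, refer to the spread of the vector difference over stages. The edgeR p-values, with stage as a block, refer to counting variance and to that spread moderated towards the other windows or bins. The edgeR common dispersion was 9.77e-05 for windows and for bins, whose counts share fragments between vectors. This value is the lower limit of the default range searched, so it is a floor and not an estimate of the spread.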

Additional observations from a re-analysis of the deposited data

Results flagged for a closer look

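In 42 groups of 5 libraries examined for a value far from the rest, 3 were picked out, where chance picks about 1 in 20 groups. Fragments under 150 bp made up 23.8% of the pDONR ES library, its gap to the nearest library being 0.817 of the range. The Nufip2 bin (chr11:77730001-77740000) held 14.0 CPM (counts per 1e+06 distinct fragments) in pDONR ES and 8.27 in pSKB ES, each the highest of its vector, with gaps of 0.734 and 0.714 of the range.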

How the results depend on the processing

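With the stages paired (replicate block), the exact sign-flip test over 5 pairs gave p = 0.0625, its smallest, and an adjusted p of 0.0893 for distinct fragments (difference -4035870), fragments with 1 read (-7.22 points), the Gini coefficient (0.284) and the top 1% share (10.8 points). Without any 1 stage these ranged from -4310010 to -3854450, from -7.78 to -6.63 points, from 0.272 to 0.302 and from 10.1 to 11.8 points, at adjusted p of 0.0571 to 0.0714 by exact permutation. Fragments with 1 read differed by -1.70 points in the lists as deposited. The difference in median length, near 0, turned to -3.8 bp at the lower depth and -10.8 bp among fragments with at least 2 reads, rose to 11.2 bp weighted by reads, and ran from -1.25 to 1.75 bp without 1 stage. That in fragments under 150 bp turned to -0.987 points as deposited and -2.26 weighted by reads, rose to 5.04 among fragments with at least 2 reads, and ran from -0.475 to 1.89 without 1 stage. The length contrast of retention turned to -2.99 points among fragments with 4 to 7 reads, -13.7 with 8 to 15, -20.5 with 16 to 31 and -9.74 with 32 and more, classes chosen after seeing the data, and ran from 8.20 to 10.6 points without 1 stage. Causes were not tested.

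Promoter windows called numbered 0 with reads summed, 0 with no replicate block, 0 with DESeq2, 1 with no filter, 1 at equal depth and 1 to 3 without 1 stage. Bins called numbered 602 with reads summed, 0 with no replicate block, 3 with DESeq2, 0 with no filter, 553 with at least 10 fragments in every pDONR library, 34 at equal depth, 1281 at 50 kb and 22 to 158 without 1 stage. Of the 602, 76 were among the 231. The Nufip2 bin turned to 0.29 with reads summed. Each library is single, the curves of neither vector had levelled off, and counts of the 2 vectors share fragments. Small locus changes therefore rest on the spread of the vector difference over stages, with a dispersion drawn in part from all windows or bins tested.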

Other observations

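The 3 control reactions on HM-1 cells listed 2438, 10887 and 1942 distinct fragments. Of these, 3.98% to 31.2% of the first, 6.26% to 30.9% of the second and 7.72% to 27.1% of the third occurred in a single pDONR list. In a single pSKB list the shares were 2.54% to 12.6%, 3.66% to 12.8% and 5.66% to 16.6%. No test was made.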
